A study of Bos indicus with 72 samples.

Results

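ENSBTAG00000001388 is 1 of 24616 bovine gene identifiers with a row in the count and liver tables, and 1 of 14437 in the uterus tables. It was chosen because its uterine level stood far higher after puberty than before it and was widely spread among the post-pubertal heifers. The uterine values below therefore chose the gene, and they are given as a description without a test. The files do not pair their identifiers with gene names, and 0 of 34142 rows of the RefSeq gene table used here carry such an identifier. No name, function, position or sequence is given for this gene for that reason. At a gene length of 639 bases, the smallest that gave whole numbers, its liver and uterus values were whole reads within rounding error. That follows from how the length was chosen and is no check of it.

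The libraries came from 12 Brahman heifers, cattle labelled Bos indicus, and address how expression differs around puberty. Uterus, pituitary, left ovary, hypothalamus, right ovary and liver each had 6 post-pubertal and 6 pre-pubertal libraries by their labels, 1 per heifer and tissue and 72 in all. No genotype, treatment, age or stage of the oestrous cycle beyond the puberty status is stated in the labels used here. Animals 2054 and 2059 carried a different status in uterus and liver than in the other 4 tissues. In the uterus, 2054 was labelled post-pubertal and 2059 pre-pubertal, and the main uterine values are also given without them. In the liver the file headers contradict the labels of both animals, so those 2 liver libraries stayed out of the liver test. Reads in genes lay between 17.1 and 23.8 M per library in the uterus, 18.8 and 25.9 M in the liver, 4.84 and 10.4 M in the hypothalamus and 4.43 and 9.76 M in the pituitary. The ovaries had far fewer, 185848 to 272306 on the left and 184808 to 334454 on the right. In uterus and liver these reads were recovered from the deposited values, for genes there with a recovered length. Because no identifier could be paired with a symbol, the tissues could not be checked against marker genes.

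As background, puberty in heifers is marked by the first ovulation, after which a corpus luteum forms in the ovary and secretes progesterone. The lining of the uterus then goes through repeated oestrous cycles, in which oestradiol and progesterone switch secretory and structural genes of the glands and the surface epithelium on and off. Before puberty the uterus is not yet exposed to that sequence of hormones, and after it heifers can be sampled at different points of the cycle.

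In the uterus the gene was abundant in most post-pubertal libraries and of middling rank in the pre-pubertal ones. Levels here are RPKM, read counts scaled to the length of the gene and to the reads of the library. The 6 post-pubertal heifers gave 1924 RPKM in animal 2057, 1431 in 2064, 310 in 2061, 230 in 2047, 159 in 2054 and 41.0 in 2056. The 6 pre-pubertal heifers gave 17.8 RPKM in animal 2059, 10.3 in 2060, 10.1 in 2055, 9.01 in 2046, 6.25 in 2049 and 4.30 in 2048. The groups did not overlap: the lowest post-pubertal library stood 2.31-fold above the highest pre-pubertal one. The gene was chosen on this contrast, so nothing is read from the next share. All 6 post-pubertal libraries lay above all 6 pre-pubertal ones in 4.23% of the 9041 other well-expressed uterine genes, those with a mean of at least 5 RPKM over the 12 libraries.

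The group means were 682 ± 791 RPKM after puberty and 9.61 ± 4.62 RPKM before it (SD, n = 6 each). On the log2(RPKM + 0.5) scale the difference was 5.15, a 35.6-fold ratio of geometric means of RPKM + 0.5. In ranks the gene was the 78th most abundant of the uterus in animal 2057 and the 92nd in 2064, but the 1899th in 2056. Among pre-pubertal libraries its rank lay between 3963 in animal 2059 and 9017 in 2048. The depth behind these levels was ample after puberty, with 660 to 28756 reads of the gene per library, and moderate before it, with 65 to 234. In animal 2056 its 660 reads gave 31.6 CPM, counts scaled to the gene reads of the library alone, with an exact 95% binomial interval of 29.2 to 34.1 CPM. In animal 2048 its 65 reads gave 3.22 CPM, with an interval of 2.48 to 4.10 CPM. Such intervals cover counting error only.

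**Figure D1:**
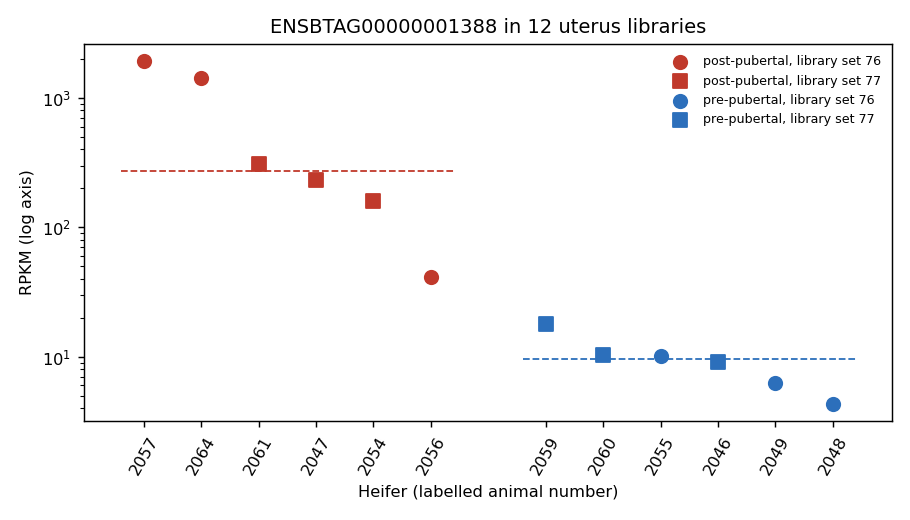
RPKM of ENSBTAG00000001388 on a log axis in each uterus library, post-pubertal on the left and pre-pubertal on the right, with the shape marking the library set and the dashed line the group median. The 6 post-pubertal libraries run between 41.0 and 1924 RPKM and the 6 pre-pubertal ones between 4.30 and 17.8 RPKM.

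In this gene, both libraries whose status was in doubt stood toward the other group. Animal 2059 was the highest pre-pubertal library, and animal 2054 was the second lowest post-pubertal one, 8.93-fold above 2059. Without both, the difference was 5.56 on the log2 scale. In the 4 tissues with counts these animals carry the other status. With that status in the uterus, 17.8 RPKM would count as post-pubertal and 159 RPKM as pre-pubertal, and the groups would overlap. Over the 631 other well-expressed genes called higher after puberty, the mean log2 shift from the pre-pubertal mean was 1.12 in 2054 and -0.10 in 2059. The other post-pubertal libraries had 0.95 to 1.27, and the other pre-pubertal ones -0.05 to 0.17. The labels of both animals entered the choice of those genes. Numbers in the file names, which the labels do not explain, split the uterus libraries into sets 76 and 77, with both groups in each. Set 76 held both the highest post-pubertal libraries and the lowest one, and its difference was 6.12. In set 77 the 3 post-pubertal libraries lay close together, between 159 and 310 RPKM, and the difference was 4.19.

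The gene's standing as the strongest riser depended on those 2 animals. With all libraries as labelled, 1 other well-expressed gene differed more, by 5.63, with means of 403 RPKM after and 7.49 RPKM before puberty. Without animals 2054 and 2059 no well-expressed gene differed more than ENSBTAG00000001388, but the next one reached 5.56 as well. These values are a description of the choice and carry no test.

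The spread among post-pubertal heifers was among the widest in the uterus. The highest library stood 47.0-fold above the lowest after puberty and 4.13-fold above it before puberty. The SD on the log2 scale was 2.06 in the post-pubertal libraries and 0.66 in the pre-pubertal ones. The median SD of the other well-expressed genes was 0.29 after and 0.28 before puberty. Of those 9041 genes, 35 (0.387%) varied more than this gene after puberty and 709 (7.84%) varied more before it. Among the 4 post-pubertal libraries other than 2057 and 2064 the SD was still 1.28, and 96 genes varied more there.

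Genes that were strongly higher after puberty also spread more widely after it, though none as widely as this one. Of 13137 uterine genes tested, 787 were higher after puberty, or 5.99%, and 807 were lower, or 6.14% (limma, Benjamini-Hochberg adjusted p under 0.05). Without animals 2054 and 2059 the counts were 279 and 228. Apart from the gene itself, 631 well-expressed genes were called higher, and their median SD after puberty was 0.38. Among the 68 of these that were at least 4-fold higher the median SD was 0.99 and the largest 2.01. None of the 631 exceeded the 2.06 of ENSBTAG00000001388, although the call itself becomes less likely as the spread grows. The same post-pubertal libraries give the difference and the SD, so choosing genes by a large difference can favour a wide SD. ENSBTAG00000001388 was itself chosen partly for its spread, so its standing here is a description.

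**Figure D2:**
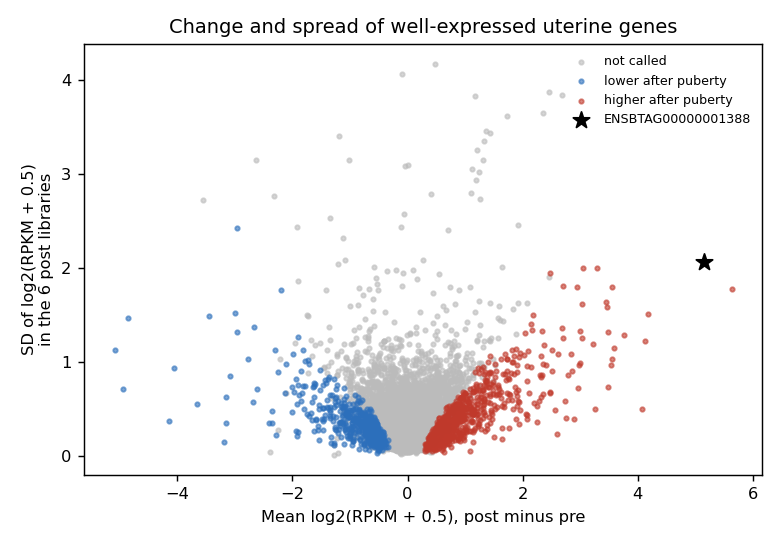
Each point is a uterine gene with a mean of at least 5 RPKM, placed by its post-pubertal minus pre-pubertal difference in log2(RPKM + 0.5) on the horizontal axis and by its SD over the 6 post-pubertal libraries on the vertical axis, and coloured by the limma call. The star, ENSBTAG00000001388, lies at 5.15 and 2.06, above every gene called higher in SD.

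The order of the post-pubertal libraries in this gene was not the order in which they stood in the other genes that rose. Each library's mean shift of the 631 other rising genes from the pre-pubertal mean was 1.13 on the log2 scale in animal 2057, 0.95 in 2064, 1.27 in 2061, 1.13 in 2047, 1.12 in 2054 and 1.02 in 2056. Animal 2064, second highest in ENSBTAG00000001388, thus had the smallest mean shift of the risers, and 2056, lowest in the gene, was only slightly above it. The 452 well-expressed genes called lower had mean shifts between -1.21 in animal 2057 and -0.85 in 2056. Over the 6 post-pubertal libraries the gene's r with the 631 risers had a median of 0.03, and with the 68 strongest a median of -0.11, of which 29 were above 0. Of the 631 risers, 19 (3.01%) had r of at least 0.9 with the gene and 19 (3.01%) had r of at most -0.9. Over all 9041 well-expressed genes the median r was -0.29, with 1.31% at or above 0.9 and 4.89% at or below -0.9, so the risers' r lay higher than that of the genes at large.

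The gene did vary with the main axis that separated post-pubertal uteri. The first principal component of the well-expressed genes over those 6 libraries held 45.5% of their variance, and the gene's r with it was 0.87 (n = 6, a description). Its scores were highest in animals 2057 and 2064, at 46.3 and 27.8, with 2054 at -3.65, 2061 at -16.4, 2056 at -25.7 and 2047 at -28.4. A measure of the libraries moved with it, the share of the recovered library total that fell in genes of the uterus tables. It was 89.6% in animal 2057 and 87.0% in 2064, against 81.8% to 84.8% in the other 4. Reads in genes absent from those tables count as outside, so it is no measure of all reads in genes. Its part in the spread was not tested. The 2 libraries did not stand apart in the number of gene reads, with 20.9 M in 2057 and 22.7 M in 2064 where the other 4 had 18.3 to 23.8 M.

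Few well-expressed genes followed the spread. Followers were sought among the 285 well-expressed genes with an SD of at least 1 on the log2 scale in the post-pubertal libraries, and 12 of them (4.21%) had Pearson's r of at least 0.9 with ENSBTAG00000001388 over those 6 libraries. Since r selected these genes, its values are a description with no p. In all 12 the 2 highest post-pubertal libraries were 2057 and 2064, as was so in 33 of the 285 genes (11.6%). In 10 of the 12 the lowest was animal 2056, for which the share of the 285 was not counted. The choice by r favours such an order. The followers' own SD lay between 1.0 and 1.66, below the 2.06 of the gene, so none of them spread as widely. Their median level was 14.1 RPKM after and 5.27 RPKM before puberty.

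ENSBTAG00000021306 was the closest follower, with r of 0.97. Its post-pubertal libraries gave 201 RPKM in animal 2057, 137 in 2064, 57.1 in 2061, 35.9 in 2047, 49.5 in 2054 and 7.18 in 2056. Its pre-pubertal libraries lay between 15.05 and 26.9 RPKM, so animal 2056 lay below all of them while 5 of the 6 post-pubertal libraries lay above them. Its group means were 81.4 ± 73.1 RPKM after and 22.2 ± 4.0 RPKM before puberty (SD, n = 6 each), and the limma test did not call it. ENSBTAG00000019060 came next, with r of 0.96 and post-pubertal values between 1.23 RPKM in animal 2056 and 31.8 RPKM in 2057. Its means were 9.65 ± 12.03 RPKM after and 3.02 ± 1.23 RPKM before puberty (SD, n = 6 each), and it was not called either.

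Of the 12 followers, 2 were called higher after puberty, 0 lower and 10 neither, which is near the background, since 16.1% of the 285 genes with such spread were called higher and 5.26% lower. Their mean was higher after puberty in 11 of 12, with differences between -0.20 and 2.85 and a median of 0.82 on the log2 scale, where the median of the 285 was 0.25. The same post-pubertal libraries chose the followers and enter these differences. The list depended on the libraries: 17 genes passed without animal 2054, 22 without 2061, and 22 without 2057 and 2064, of which 4 were among the 12.

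**Figure D3:**
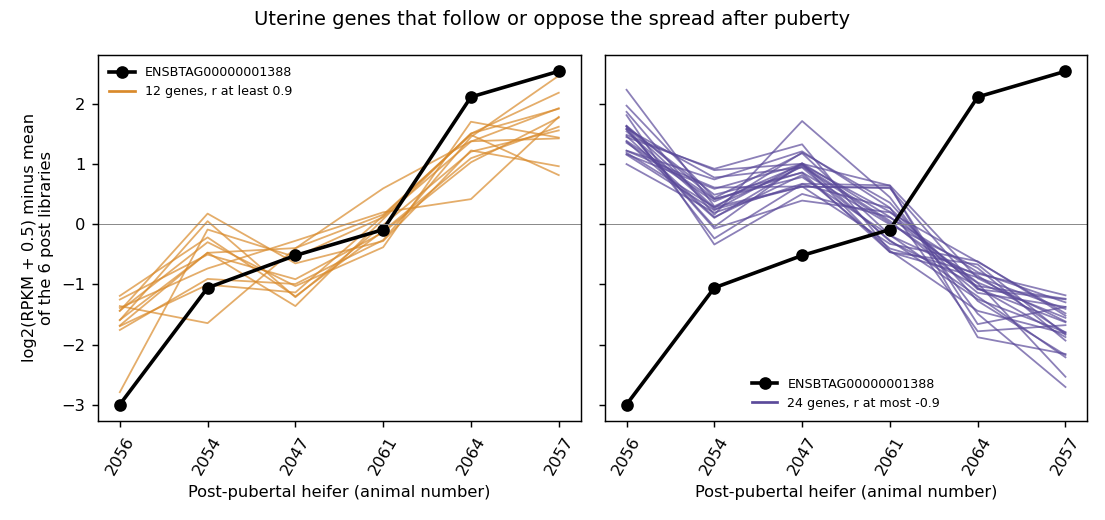
log2(RPKM + 0.5) in the 6 post-pubertal uterus libraries, each gene minus its own mean over them, with libraries ordered by the level of ENSBTAG00000001388 (black). The 12 followers on the left climb with it and the 24 opposed genes on the right run the other way, and both differ mainly between 2056 at one end and 2057 and 2064 at the other.

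Genes with the opposite order outnumbered the followers on the log2 scale, but not in every setting. Of the same 285 genes, 24 (8.42%) had r of at most -0.9 with ENSBTAG00000001388. In all 24 animal 2056 was the highest post-pubertal library and 2057 and 2064 were the 2 lowest. The latter was so in 112 of the 285 genes (39.3%), while the share for 2056 was not counted. The choice by r favours such an order. Without animal 2057, 15 genes passed, without 2056, 40, without 2047, 54, and without 2054, 34. On linear RPKM the direction turned, with 19 followers and 9 opposed genes, as it did without 2057 and 2064, with 22 and 15, and over all 12 libraries after subtracting the group mean there was 1 of each. Over all 9041 well-expressed genes, whatever their SD, 442 had r of at most -0.9 and 118 had r of at least 0.9. In ranks, 2057 and 2064 were the 2 lowest post-pubertal libraries in 28.6% of those genes and the 2 highest in 10.9%. Of the 24 opposed genes, 6 were called higher after puberty, 0 lower and 18 neither, where 16.1% and 5.26% of the 285 were called higher and lower.

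ENSBTAG00000006771 was the most opposed, with r of -0.96. It stood at 3.36 RPKM in animal 2057, 5.14 in 2064, 10.6 in 2061, 25.2 in 2047, 22.4 in 2054 and 39.6 in 2056, against 1.69 to 3.05 RPKM in the pre-pubertal libraries. It was called higher after puberty, with means of 17.7 ± 14.0 RPKM after and 2.18 ± 0.54 RPKM before it (SD, n = 6 each). Like ENSBTAG00000001388 it was thus higher in every post-pubertal library, but its order among them was almost the reverse. ENSBTAG00000021187, with r of -0.96, differed in that its means were close, 45.7 ± 35.9 RPKM after and 47.4 ± 11.9 RPKM before puberty (SD, n = 6 each). Its post-pubertal values ran between 9.57 RPKM in animal 2057 and 109 RPKM in 2056, on both sides of the pre-pubertal range of 34.5 to 67.3 RPKM.

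The pre-pubertal libraries entered the choice of these genes through their mean level but not through r, and both signs of r occurred there in both lists. Over the 6 pre-pubertal uteri the followers' r with ENSBTAG00000001388 had a median of 0.02, between -0.76 and 0.79, and 6 of 12 were above 0. For the opposed genes the median was 0.21, and 16 of 24 were above 0. For all 285 genes with such spread the median was 0.07 and 53.3% were above 0. The gene's own SD was 2.06 after puberty and 0.66 before it.

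**Figure D4:**
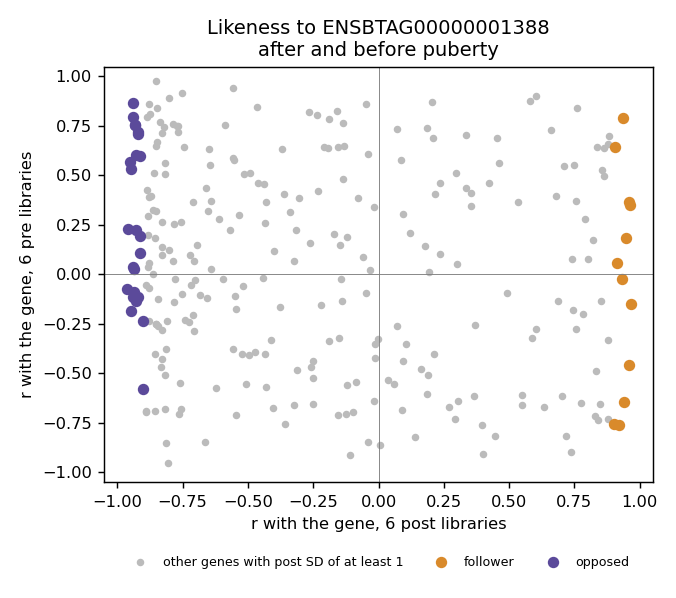
Pearson's r with ENSBTAG00000001388 for the 285 well-expressed uterine genes with a post-pubertal SD of at least 1, over the 6 post-pubertal libraries on the horizontal axis and the 6 pre-pubertal ones on the vertical axis. Followers (orange) and opposed genes (purple) are scattered over both signs before puberty, with medians of 0.02 and 0.21.

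Outside the uterus the gene was low in pituitary, hypothalamus and liver, and its level in the ovaries was poorly determined. On the shared scale of CPM, the uterine median was 210 after puberty and 7.36 before it, and the medians over all 12 libraries were 2.46 CPM in the pituitary, 2.29 in the left ovary, 2.14 in the hypothalamus, 1.61 in the right ovary and 0.417 in the liver. These tables were counted and normalized separately by the authors. The gene reads behind CPM also cover different genes: those of the uterus tables, liver genes with a recovered length, and all gene rows of the count tables. Levels set across tissues are therefore a description. The post-pubertal uterus, at 31.6 to 1373 CPM, lay above every library of the other tissues in point values. The pre-pubertal uterus, at 3.22 to 13.7 CPM, overlapped the pituitary range of 0.884 to 3.798 CPM only at its lower end. Pituitary and hypothalamus, whose values ran between 1.26 and 10.3 CPM, could not be ordered, since the hypothalamus was the higher in 6 of 12 animals. Both were higher than the liver in 12 of 12 animals by number, and the 12 liver libraries lay between 0.274 and 0.604 CPM on 6 to 14 reads each.

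In the ovaries the level rested on very few reads. The left ovaries held 11 reads of the gene and the right ovaries 12 over their 12 libraries each, or 4.26 CPM (exact 95% binomial interval 2.12 to 7.61) and 3.79 CPM (1.96 to 6.62). In 6 of 12 libraries on each side it had no read. A floor of 3 reads corresponds to 16.1 CPM in the shallowest left library with none and to 16.2 CPM in the shallowest right one. The highest left value, in pre-pubertal animal 2046, was 18.7 CPM on 4 reads, with an exact 95% binomial interval of 5.09 to 47.8 CPM. That interval reaches past the 31.6 CPM of the lowest post-pubertal uterus library. The ovaries therefore could not be placed above or below the pituitary, the hypothalamus or the pre-pubertal uterus.

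**Figure D5:**
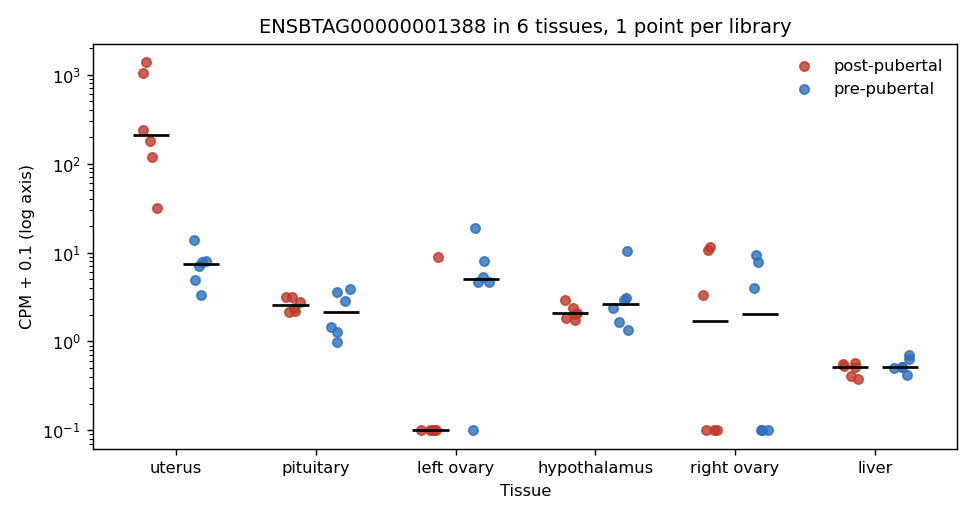
CPM + 0.1 of ENSBTAG00000001388 on a log axis, 1 point per library, with post-pubertal libraries left of pre-pubertal ones in each tissue and a bar at the median; points at the bottom are libraries with no read. The post-pubertal uterus, at 31.6 to 1373 CPM, is the one group clear of all others in point values.

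The gene was chosen on the uterus alone, so the other tissues offer tests of whether the gene changed with puberty elsewhere, and it was called in none of them. In the pituitary the 6 post-pubertal libraries had a lowest, median and highest level of 2.02, 2.46 and 3.06 CPM, and the 6 pre-pubertal ones of 0.884, 2.05 and 3.798 CPM. The groups overlapped. By edgeR's quasi-likelihood test the gene differed by 0.18 ± 0.35 on the log2 scale (± SE), and its adjusted p was 1.0. Among 13335 pituitary genes edgeR called 0 (0%), while 203 had an unadjusted edgeR p below 0.05. DESeq2, over 19339 pituitary genes, called 0. In the hypothalamus the post-pubertal libraries had 1.63, 1.96 and 2.80 CPM and the pre-pubertal ones 1.26, 2.56 and 10.3 CPM, again overlapping. By edgeR the gene differed by -0.73 ± 0.44 on the log2 scale (± SE), and its adjusted p was 0.974. That value rested on pre-pubertal animal 2049, with 85 reads of the gene where the others had 9 to 29, and without it the difference was -0.08 and the edgeR adjusted p 1.0. Among 13713 hypothalamus genes edgeR called 0 (0%), while 466 had an unadjusted edgeR p below 0.05. DESeq2, over 19461 hypothalamus genes, called 1.

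In the liver, with 5 libraries against 5, the gene differed by -0.08 ± 0.15 in log2(RPKM + 0.5) (± SE), and its adjusted p by limma was 1.0. The 6 post-pubertal liver libraries as labelled lay between 0.384 and 0.665 RPKM and the 6 pre-pubertal ones between 0.452 and 0.842 RPKM. This scale understates the change of so low a gene. Among 11697 liver genes limma called 0 (0%), while 200 had an unadjusted p below 0.05.

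In the ovaries the gene fell under the filter on low counts and was tested alone, by a two-sided exact permutation test of the mean log2(CPM + 0.5). On the left it had 2 reads in 1 of 6 post-pubertal libraries, against 9 reads over 5 of 6 pre-pubertal ones. Summed over libraries this was 1.53 CPM after puberty (exact 95% binomial interval 0.185 to 5.53) and 7.04 CPM before it (3.22 to 13.4), with an exact permutation p of 0.0671. That p was 0.0260 without post-pubertal animal 2064, the one with reads, and 0.0216 without pre-pubertal animal 2049, the one without, by the same exact permutation test. On the right it had 7 reads in 3 of 6 post-pubertal libraries and 5 reads in 3 of 6 pre-pubertal ones, with an exact permutation p of 0.870. Leaving out 1 library turned the direction on the right in 6 of 12 cases. Among 1922 left ovary genes edgeR called 0 (0%), while 101 had an unadjusted edgeR p below 0.05. DESeq2, over 15815 left ovary genes, called 0. Among 2073 right ovary genes edgeR called 50 (2.41%), 44 higher and 6 lower, and without animals 2054 and 2059 it called 17 higher and 2 lower. DESeq2, over 15978 right ovary genes, called 141 higher and 39 lower.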

How the data were processed

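RNA-seq was made from paired-end TruSeq libraries, per the labels' protocols. For hypothalamus, pituitary and ovaries the authors deposited counts per gene, for the liver RPKM and for the uterus log2 values. The submitters' processing notes name the build UMD3.1. The sources used here do not give aligner, counter or strand use, so overlapping, antisense or near-identical genes may share reads. The 5 rows per count file that name no gene were left out; they held a median of 65.0% of all counts (hypothalamus), 64.5% (pituitary), 99.4% (left ovary) and 99.3% (right ovary).

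The deposited uterus log2 values are never below 0 and behave as the absolute value of log2(RPKM + 0.001). The sign was read from the gene length and library total that give whole reads within 0.003 reads, or within rounding error for larger counts; 14.1% of values were read as below 0, and for 0.565% no sign was clear and they were read as above 0. None of the 12 values of ENSBTAG00000001388 is affected. Of 13898 values read as above 0 and under 1000 reads, 100.0% were whole with the recovered totals, as the rule requires, and 0.554% with totals shifted by 1 library.

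Groups are the labelled tissue and status. All fits ran over whole tables: edgeR 4.0.16 (quasi-likelihood, TMM, filterByExpr, robust) for counts, limma 3.58.1 (trend, robust) on log2(RPKM + 0.5) for genes of which at least 5 libraries reached 0.5 RPKM, with DESeq2 1.42.0 as an alternative, a threshold of 0.05 after Benjamini-Hochberg adjustment, and two-sided tests. Standard errors of edgeR changes come from the F statistic. The fits and the signs were also run on simulated data in which genes varied independently of each other, and no result here rests on those runs. Named genes are the 2 followers of highest r and the 2 opposed genes of lowest r. Gene, thresholds and settings were chosen with earlier results of these data known. Marker lists could not be used without symbols.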

Additional observations from a re-analysis of the deposited data

Results flagged for a closer look

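Each of the 12 groups of 6 libraries was examined for a level of ENSBTAG00000001388 far from the rest, and 2 held one. A nominal rate of 1 in 20 would give about 0.6 such groups. That rate was not checked for counts as low as these, so no excess is read from it. In the hypothalamus before puberty, animal 2049 had 10.3 CPM on 85 reads (exact 95% binomial interval 8.22 to 12.7 CPM), against 1.26 to 2.94 CPM in the other 5. In the pituitary the same animal had 0.884 CPM, the lowest of its group, and in the uterus 6.25 RPKM, the second lowest. In the left ovary after puberty, animal 2064 had 8.81 CPM, and the other 5 had no read. That value rests on 2 reads, with an exact 95% binomial interval of 1.07 to 31.8 CPM.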

How the results depend on the processing

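The uterine difference of ENSBTAG00000001388 kept its direction in all alternatives run, with 5.22 and 5.08 at pseudocounts of 0.1 and 1, and 4.65 to 5.75 without any 1 library. The numbers of uterine genes called higher and lower were 279 and 228 without animals 2054 and 2059, against 787 and 807 with them. The 12 followers and 24 opposed genes became 19 and 9 on linear RPKM (9 and 3 of them shared), 4 and 8 at a mean of at least 20 RPKM, 118 and 442 with no minimum SD, and 1 and 1 over all 12 libraries after subtracting the group mean. Without animals 2057 and 2064, chosen after seeing the data, 22 and 15 genes passed over the other 4 libraries, 4 and 3 of them shared, although all 12 and 24 kept the sign of r. Leaving out 1 post-pubertal library gave 10 to 22 followers (22 without 2061) and 15 to 54 opposed genes (15 without 2057, 40 without 2056, 54 without 2047).

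In the other tissues the log2 changes were also taken without any 1 animal. By edgeR they lay between -0.90 and -0.08 in the hypothalamus and 0.04 and 0.39 in the pituitary. By limma they lay between -0.14 and -0.01 in the liver. For the ovaries the change was the permutation test's difference in mean log2 CPM with a pseudocount, so its size is not comparable. It lay between -3.26 and -2.16 on the left and -0.43 and 0.56 on the right. On the right, 6 of 12 reversed the main value of 0.08. With all animals the left ovary gave -2.56 by this measure, -1.91 by DESeq2 and -1.74 by edgeR with no filter. The right ovary gave 0.08, 0.69 and 0.66 in the same order. Without any 1 animal the left ovary's exact permutation p lay between 0.0216 and 0.134, below 0.05 only without 2064 or 2049. Without animals 2054 and 2059 together hypothalamus gave -0.90 and pituitary 0.37 by edgeR. The left ovary gave -2.40 and the right ovary 0.33 by the permutation test's measure, and none of these was called. No other alternative run changed a call or a direction there. In the right ovary, 44 genes called higher and 6 lower became 141 and 39 by DESeq2 and 182 and 83 by edgeR with no filter. Over 15815 left ovary genes, edgeR with no filter called 2 higher and 2 lower. RLE factors and a library-set term gave no value for the gene in the ovaries, where it did not pass the filter of that test. For right ovary genes edgeR called 42 higher and 5 lower with RLE factors, and 48 and 6 with the library-set term. Depth limits the ovaries most, with at most 4 reads of the gene per library. No paired analysis was possible because each heifer has only 1 status per tissue.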

Other observations

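The r between the followers and ENSBTAG00000001388 was also taken over the 12 libraries of each tissue, for followers above 1 CPM (RPKM in the liver) in every library. The median was 0.25 for 8 followers in the hypothalamus, 0.29 for 7 in the pituitary and -0.28 for 5 in the liver, beside 0.10, 0.10 and -0.14 for all such genes. For the opposed genes it was 0.32 for 20, 0.10 for 22 and -0.04 for 15 in the same order of tissues, so in hypothalamus and liver it lay above that of the followers. The gene had 6 to 85 reads per library in those tissues, so these values carry much counting error and are no finding. In the hypothalamus, animal 2049 stood at 10.3 CPM and the other libraries at 1.26 to 2.94 CPM. Each r there can thus rest largely on that 1 library.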
